A study of Homo sapiens with 13 samples.

Results

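The expression of 9 coagulation genes, SERPIND1, SERPINC1, SERPINA1, F3, TFPI, TFPI2, THBD, F2R and F2RL1, was examined in human non-small cell lung carcinoma cells selected for growth in bone. All probe sets that the platform annotation assigns to 1 of these genes alone were taken, which gave 16 of 22277 probe sets and 8 of 11963 genes. F2RL1 was named by 0 probe sets in that annotation and is not analysed here. SERPIND1 was chosen by its log2 signals on these same arrays, so its values are a description without a test, and the counts of calls below cover the other 7 measured genes.

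RNA was measured on 13 Affymetrix oligonucleotide arrays. The metastatic lines M1, M4 and M5 filled 3 arrays each, and control cells filled 4, of which 2 carried a luciferase reporter and 2 did not. The lines had been recovered from bone metastases that formed after control cells were put into the heart of mice, and each array received RNA pooled from 3 groups of cells. The labels name neither the parental cell line nor whether M1, M4 and M5 carry luciferase, and they call the arrays of a group biological replicates without saying what separated them, so p-values measure the spread between these arrays. Each line is 1 derived cell population, and what held for it was measured in that population. The comparison asked by the study is which genes accompany colonisation of bone, with each line set against control.

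Blood coagulation is started by tissue factor, the product of F3, which binds factor VII and leads to the formation of thrombin. Thrombin cleaves fibrinogen and signals to cells through protease-activated receptors such as F2R. It is held in check by serpins, which trap proteases irreversibly, by the Kunitz-type inhibitors TFPI and TFPI2, and by thrombomodulin, the product of THBD, which turns thrombin towards activation of protein C. Carcinoma cells of several tissues are known to carry tissue factor, and many of the plasma inhibitors are made chiefly by the liver.

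The sequences before the starts of 3 of these genes are shown because SERPIND1 and TFPI are the members whose signals varied most between arrays, and TFPI2 had the highest mean signal of the members on its probe set. The RefSeq promoter table of GRCh38.p14 held 6 of the 9 members. Each sequence runs 5′ to 3′ over the 250 bases before the gene's start, and capitals mark matches to the motifs searched.
SERPIND1, chr22:20773863-20774112, plus strand: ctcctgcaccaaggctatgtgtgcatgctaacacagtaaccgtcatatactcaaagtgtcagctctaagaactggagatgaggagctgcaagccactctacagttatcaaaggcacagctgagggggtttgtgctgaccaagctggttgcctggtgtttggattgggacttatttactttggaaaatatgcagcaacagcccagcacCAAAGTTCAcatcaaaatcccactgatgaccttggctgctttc
TFPI, chr2:187554436-187554685, minus strand: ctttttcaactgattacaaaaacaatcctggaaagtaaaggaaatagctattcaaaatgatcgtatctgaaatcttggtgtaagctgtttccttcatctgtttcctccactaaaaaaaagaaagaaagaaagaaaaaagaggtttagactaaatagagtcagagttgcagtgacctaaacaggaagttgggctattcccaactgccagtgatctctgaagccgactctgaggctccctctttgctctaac
TFPI2, chr7:93890754-93891003, minus strand: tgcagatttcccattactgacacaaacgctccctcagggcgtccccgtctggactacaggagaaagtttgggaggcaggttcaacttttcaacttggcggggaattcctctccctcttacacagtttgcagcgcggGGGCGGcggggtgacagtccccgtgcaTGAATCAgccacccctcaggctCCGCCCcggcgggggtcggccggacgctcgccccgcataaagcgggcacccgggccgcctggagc
A set of 4 motifs was searched on both strands, chosen after these sequences had been seen. The TATA box was read as TATAAA. The GC box, which Sp1-type factors bind, was read as GGGCGG. The AP-1 motif was read as TGANTCA. A direct repeat of the type bound by the liver-enriched receptor HNF4 was read as CAAAGNNCA. No searched motif overlapped another in these windows. SERPIND1 held 1 match, CAAAGTTCA, from 43 to 35 bases before the start, a motif that 4.44% of 35116 promoter windows of this length hold. TFPI held 0 matches to the 4 motifs. TFPI2 held GC boxes at 2 places, a motif found in 42.64% of windows, and the AP-1 match TGAATCA, a motif found in 6.57%. Guanine and cytosine made up 47.6% of the bases in SERPIND1, 38.4% in TFPI and 64.4% in TFPI2, against a median of 58.0% over all windows. F3, which is not printed, held 4 GC boxes, 2 AP-1 matches and 1 TATA box, the last found in 10.72% of windows. A match is a string of letters and was not tested for binding.

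Arrays did not group by line alone. The 62 Affymetrix control probe sets, which include those for spiked-in transcripts, were used to divide the arrays into 4 clusters by Ward clustering. The number of clusters was set by choice and not found from the data. Cluster 1 held replicate 1 of both kinds of control with M1 replicate 2, and cluster 2 held replicate 2 of both controls with replicate 1 of M1, M4 and M5. Cluster 3 held M1 replicate 3 with M4 replicates 2 and 3, and cluster 4 held M5 replicates 2 and 3. By correlation across genes the nearest array lay in the same cluster for 13 of 13 arrays and in the same group for 4 of 13. The labels do not name a batch, so the clusters describe the arrays and their origin is not known here. Clusters 3 and 4 held no control array. Differences are therefore given from the deposited values and, where it matters, with the 4 clusters as a block. With the block M5 against control rests on M5 replicate 1 alone, and M4 against control leans on M4 replicate 1 and on M1.

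SERPIND1 encodes heparin cofactor II, a serpin made mainly by the liver that inactivates thrombin, and does so much faster when dermatan sulphate or heparin is bound. It was high in M5 and low in control. Its probe set 205576_at had log2 signals of 7.24, 7.69 and 7.92 in M5. In M1 they were 4.24, 4.67 and 6.44, and in M4 4.22, 5.36 and 5.41. Controls with luciferase had 4.05 and 4.09, and controls without it had 4.27 and 4.28. The M5 arrays lay above all other arrays, whereas M1 and M4 overlapped each other and replicate 1 of both lay within the range of control.

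**Figure D1:**
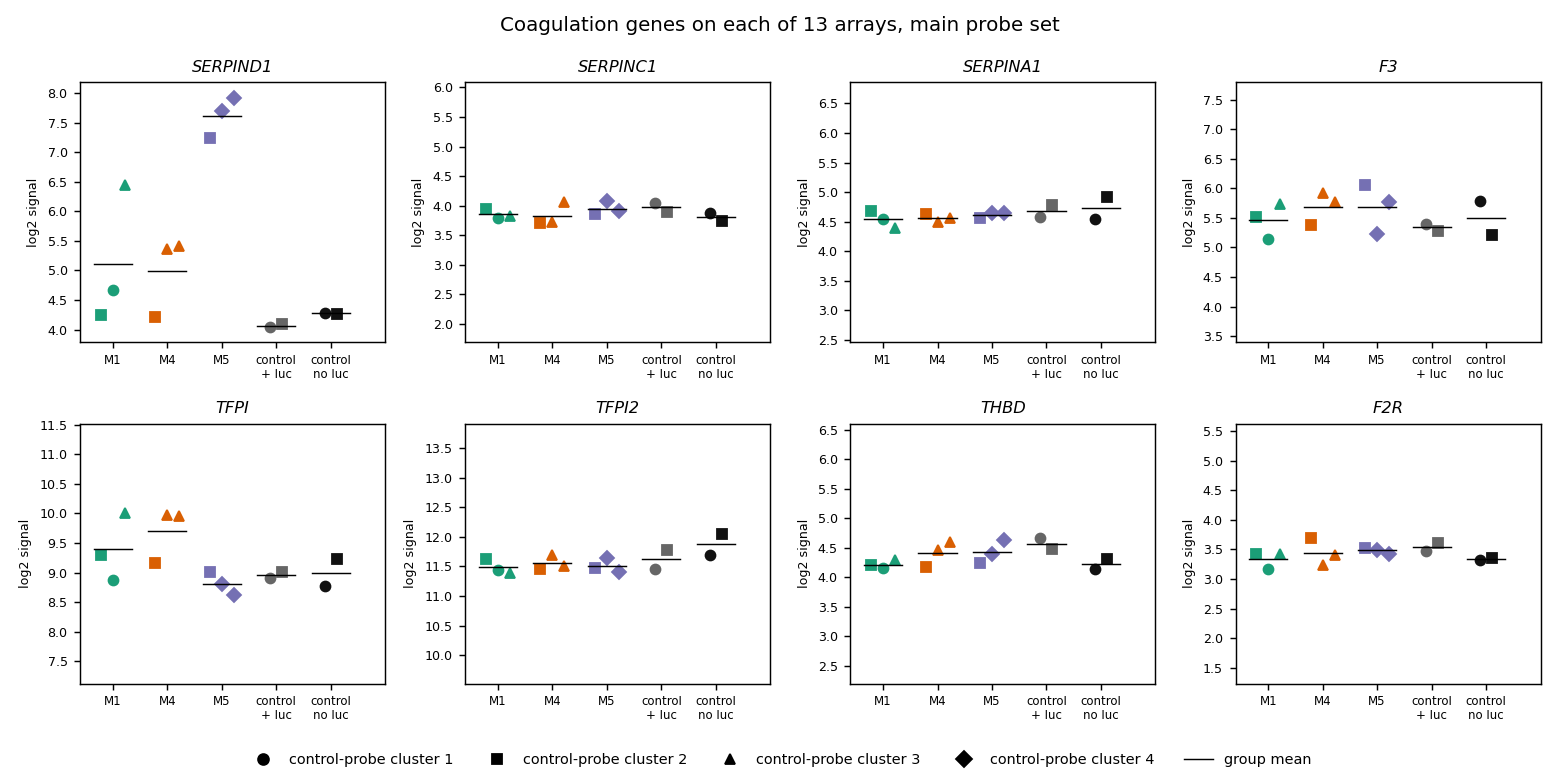
Log2 signal (vertical axis) of the main probe set of each measured coagulation gene on each array, by group (horizontal axis), with symbols for the control-probe cluster and a line at the group mean. Each panel has its own offset and all cover the same span of log2 units. SERPIND1 in M5 lies between 7.24 and 7.92, and the 3 highest TFPI arrays, at 9.96 to 10.01, are those of cluster 3.

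The mean SERPIND1 signal was 7.62 ± 0.35 in M5 (SD, n = 3), 5.12 ± 1.16 in M1 (SD, n = 3), 4.996 ± 0.68 in M4 (SD, n = 3) and 4.17 ± 0.12 in control (SD, n = 4). M5 differed from control by 3.45 ± 0.43 log2 units (SE), or 10.9-fold, and this fold is not exact because 2 of the 4 control arrays lay below the lower quartile of their array. The difference was 0.94 ± 0.43 in M1 (0.12 with the first digit of the label number as a block), 0.83 ± 0.43 in M4 and 1.74 ± 0.34 in the mean of the lines. Set against the other lines, M5 differed by 2.50 ± 0.46 from M1 and by 2.62 ± 0.46 from M4. In order of level M5 stood highest, followed by M1 and M4, which did not differ beyond their spread (M4 minus M1, -0.12 ± 0.46), and by control. With the cluster block M4 lay below M1 by more than its error (-0.64 ± 0.17). Every M5 array exceeded every control array in 5.88% of all genes and all 10 other arrays in 1.87%.

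One M5 array shared a cluster with controls, and its SERPIND1 signal was the lowest of the 3 in M5. Within cluster 2, M5 replicate 1 stood 3.06 log2 units above the mean of 2 controls, whereas M1 replicate 1 stood 0.064 and M4 replicate 1 stood 0.035 above it. Within cluster 1, M1 replicate 2 stood 0.50 above 2 controls. The higher values of M1 and M4 lay in cluster 3, at 6.44 in M1 and at 5.36 and 5.41 in M4. Without these 3 arrays the difference from control was 0.28 in M1 and 0.044 in M4. With the clusters as a block it was 3.09 ± 0.23 in M5, 0.42 ± 0.16 in M1 and -0.21 ± 0.19 in M4, so the sign of M4 turned.

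**Figure D2:**
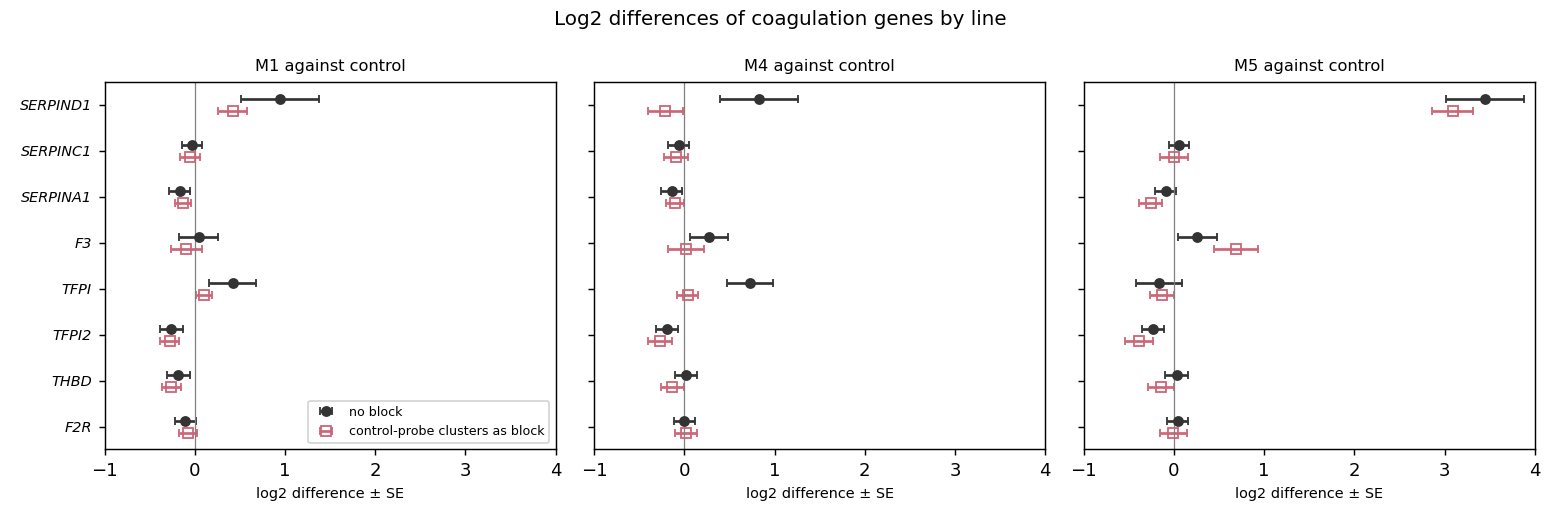
Log2 difference from control (horizontal axis) with its SE for each measured coagulation gene (vertical axis) in M1, M4 and M5, from the deposited values (filled) and with the control-probe clusters as a block (open). SERPIND1 in M5 lies at 3.45 and 3.09, while the other genes stay between -0.39 and 0.72.

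SERPIND1 lies at chr22:20774113-20787720 (GRCh38.p14), inside the interval of PI4KA, a lipid kinase gene at chr22:20707691-20858811. PI4KA differed from control by 0.37 log2 units in M5, -0.14 in M1 and 0.08 in M4 (limma adjusted p = 0.198, 1.00 and 1.00). The next measured genes on either side, MED15, SNAP29 and CRKL, differed by between -0.14 and -0.026 in M5, and 0 of these 3 were called there. The other members lie apart from it (GRCh38.p14), with SERPINC1 at chr1:173903800-173917327, F3 at chr1:94529173-94541759, TFPI at chr2:187464230-187554435, F2R at chr5:76716126-76735770, TFPI2 at chr7:93885396-93890753, SERPINA1 at chr14:94376747-94390635 and THBD at chr20:23045633-23049672.

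The genes most like SERPIND1 across the 13 arrays, among 5981 genes above the median signal, were NDUFS3 (r = 0.94), a subunit of mitochondrial complex I, PSMB2 (0.94) and PSMB7 (0.93), proteasome subunits, NDUFA6 (0.93), another complex I subunit, and the transcript PART1 (0.93). Lowest were NME6 (-0.97), DHX30 (-0.96) and IMPDH2 (-0.95), all on chromosome 3. Without the M5 arrays these 8 correlations lay between 0.81 and 0.95 for the positive genes and between -0.90 and -0.80 for the negative ones, over 10 arrays. The correlations describe 13 arrays that share lines and clusters, and no p is given for them. Among the other members the correlation with SERPIND1 ran from -0.38 for TFPI2 to 0.40 for F3.

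Of the other 7 measured genes 0 were called in 8 comparisons by limma (Benjamini-Hochberg adjusted p under 0.05 over 11963 genes). Over all genes the called share was 2.37% for M5 against control, 0.0251% for M1, 0.092% for M4 and 0.0251% for the mean of the lines. Between lines it was 0.0251% for M4 against M1, 1.23% for M5 against M1 and 2.16% for M5 against M4, and for luciferase against no luciferase it was 0%. The M5 shares depend on single arrays: without M5 replicate 1, 3062 genes were called against control, 2366 against M1 and 2443 against M4, where 284, 147 and 258 were called with it. Leaving out any other single array gave 54 to 267, 22 to 109 and 69 to 233. At an unadjusted p under 0.05 the 7 genes gave 0 in M1, 1 in M4, 0 in M5 and 1 in the mean of the lines, where 3.08%, 6.91%, 18% and 8.16% of all genes passed. They gave 0, 0, 1 and 0 in M4 against M1, M5 against M1, M5 against M4 and the luciferase comparison, where 2.83%, 14.8%, 15.1% and 1.29% of all genes passed. In the luciferase comparison limma called 0 genes in all, and 154 had an unadjusted p under 0.05. With the cluster block 0 of the 7 were called in the 8 comparisons, where the called share of all genes was 1.98% for M5, 0.234% for M1, 0.15% for M4 and 0.527% for the lines. Between lines it was then 0.117% for M4 against M1, 1.61% for M5 against M1 and 1.85% for M5 against M4, and 0.0167% for the luciferase comparison. Their median log2 difference from control was 0.029 for M5, -0.10 for M1 and 0.0011 for M4, beside 0.031, -0.0078 and -0.0011 over all genes.

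The other serpins were dim. SERPINC1, which encodes antithrombin, the main plasma inhibitor of thrombin and factor X, lay below the lower quartile of its array on 13 of 13 arrays. Its signals were 3.86, 4.07 and 3.90 in M5, 3.94, 3.80 and 3.83 in M1, 3.70, 3.72 and 4.06 in M4, and between 3.74 and 4.05 in control. The groups overlapped throughout. SERPINA1, which encodes alpha-1 antitrypsin, the inhibitor of neutrophil elastase, had its brightest probe set between 4.56 and 4.65 in M5, 4.39 and 4.68 in M1, 4.50 and 4.63 in M4, and 4.54 and 4.92 in control. Its other 2 probe sets were below the lower quartile on all arrays. The mean of the lines differed from control by -0.13 ± 0.09 for SERPINA1 and by -0.016 ± 0.088 for SERPINC1 (adjusted p = 0.765 and 0.980). The 95% intervals of these differences were -0.33 to 0.06 for SERPINA1 and -0.21 to 0.18 for SERPINC1.

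F3, the gene of tissue factor, had signals of 6.05, 5.22 and 5.77 in M5, 5.51, 5.14 and 5.73 in M1 and 5.38, 5.92 and 5.77 in M4. Controls with luciferase had 5.40 and 5.28, and controls without it had 5.78 and 5.21. All groups overlapped. F3 differed from control by 0.26 ± 0.21 in M5 (95% interval -0.20 to 0.72, adjusted p = 0.546), by 0.04 ± 0.21 in M1 and by 0.27 ± 0.21 in M4. These intervals leave room for a change of up to 0.74 log2 units in M4. With the cluster block M5 was at 0.68 ± 0.24 (unadjusted p = 0.0174, adjusted p = 0.209), a value that rests on M5 replicate 1.

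TFPI encodes tissue factor pathway inhibitor, which blocks factor X and the complex of tissue factor with factor VII. Its brightest probe set, 213258_at, had signals of 9.16, 9.98 and 9.96 in M4, 9.30, 8.87 and 10.01 in M1 and 9.00, 8.81 and 8.63 in M5. Controls with luciferase had 8.91 and 9.00, and controls without it 8.77 and 9.23. The 3 high arrays were M1 replicate 3 and M4 replicates 2 and 3, while the other M1 and M4 arrays lay at 8.87 to 9.30, against 8.77 to 9.23 in control. TFPI was at 0.72 ± 0.26 in M4 (unadjusted p = 0.0146, adjusted p = 0.564), 0.42 ± 0.26 in M1 (adjusted p = 1.00) and -0.16 ± 0.26 in M5 (adjusted p = 0.770).

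The 3 high TFPI arrays are those of control-probe cluster 3, and 4 of 5 TFPI probe sets had them above all 10 other arrays. Probe set 213258_at lay between 9.96 and 10.01 in cluster 3, against 8.63 to 9.30 in the other arrays. Probe set 210664_s_at lay between 9.59 and 9.65, against 8.20 to 8.70. Probe set 210665_at lay between 5.43 and 5.83, against 4.19 to 4.77, and 209676_at lay between 7.06 and 7.28, against 5.82 to 6.55. The differences between the means were 1.02, 1.14, 1.15 and 0.83 log2 units, and the fifth probe set, which lay below the lower quartile on all arrays, overlapped. Over all genes 3.39% had the arrays of cluster 3 above all others. Because these arrays also differ in their control probes and cluster 3 holds no control, the part of the cluster in the TFPI signal was not tested.

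**Figure D3:**
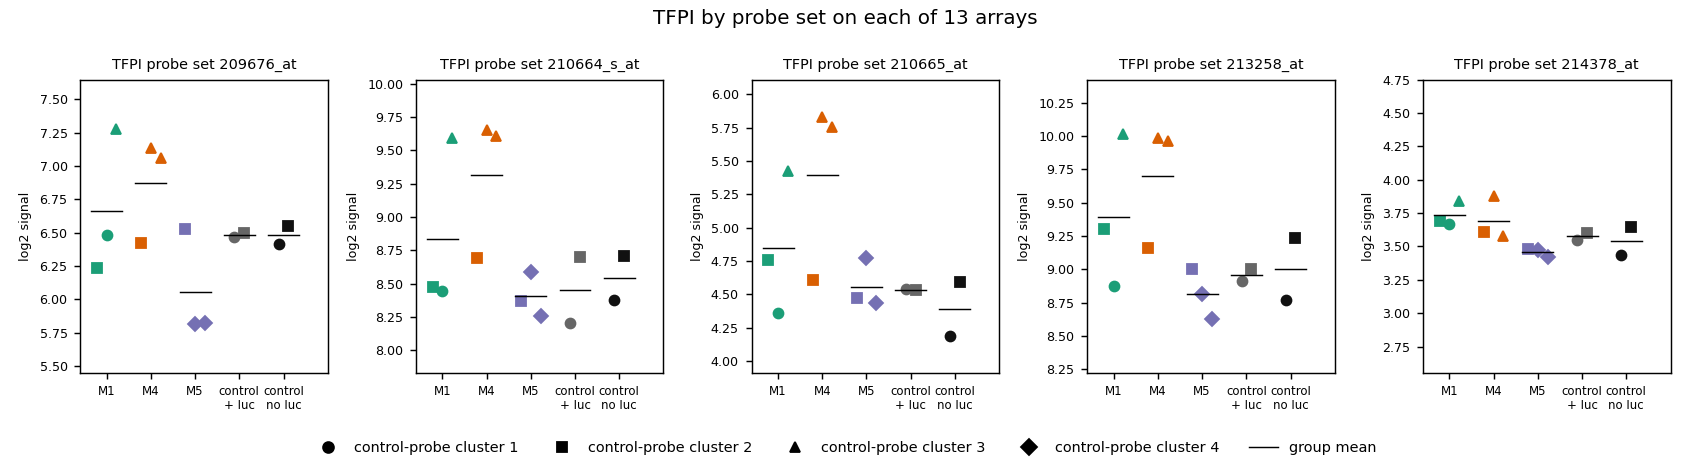
Log2 signal (vertical axis) of the 5 TFPI probe sets on each array, by group (horizontal axis), all panels covering the same span of log2 units, with symbols for the control-probe cluster and a line at the group mean. Triangles, the arrays of cluster 3, lie above all other arrays in 4 of the 5 panels.

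Within clusters that hold controls the brightest TFPI probe set stayed near them, while others differed more. In cluster 2 210664_s_at was at -0.33 in M5 replicate 1, -0.22 in M1 replicate 1 and -0.010 in M4 replicate 1. There 209676_at was at 0.0016, -0.29 and -0.097 in the same arrays. In cluster 2 probe set 213258_at differed from the mean of 2 controls by 0.045 in M4 replicate 1, 0.18 in M1 replicate 1 and -0.11 in M5 replicate 1, and in cluster 1 by 0.037 in M1 replicate 2. With the cluster block the difference was 0.037 ± 0.114 in M4. Without the arrays of cluster 3 it was 0.18 in M4, which then rests on 1 array. M5 lay below M4 by 0.89 ± 0.27 log2 units (adjusted p = 0.135), and every M5 array was below every M4 array, as in 8.9% of genes. Leaving out M5 replicate 1 gave -0.98 and an adjusted p of 0.0386, the only fit of those run in which TFPI passed, and one in which 2443 of 11963 genes were called, and with the cluster block M5 against M4 was -0.17 ± 0.15. Probe set 209676_at was lowest in M5 replicates 2 and 3, at 5.82 in both, and 6.52 in M5 replicate 1.

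TFPI2, a Kunitz-type inhibitor of plasmin, trypsin and the tissue factor complex that is deposited in extracellular matrix, was bright on every array. Probe set 209278_s_at had signals of 11.48, 11.65 and 11.41 in M5, 11.63, 11.44 and 11.39 in M1 and 11.46, 11.69 and 11.51 in M4. Controls with luciferase had 11.45 and 11.79, and controls without it 11.70 and 12.04. The lines lay at 11.39 to 11.69, from just below to within the range of the controls. The mean of the lines was -0.23 ± 0.10 (95% interval -0.44 to -0.02, unadjusted p = 0.0377, adjusted p = 0.582), and -0.31 ± 0.10 with the cluster block (adjusted p = 0.272). It was -0.14 on leaving out replicate 2 of the controls without luciferase (unadjusted p = 0.217) or of those with it (unadjusted p = 0.212). Its other probe set, 209277_at, was at 10.01 in M5 replicate 1 but at 9.00 and 8.80 in M5 replicates 2 and 3, against 9.41 to 10.10 in control, so the probe sets disagreed within M5.

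The cell surface receptors were dim and did not separate the groups. THBD had signals of 4.25, 4.40 and 4.63 in M5, 4.20, 4.16 and 4.28 in M1, 4.18, 4.47 and 4.60 in M4 and 4.14 to 4.66 in control, and its other probe set was below the lower quartile on all arrays. Between kinds of control THBD differed by 0.34 ± 0.16 with against without luciferase (unadjusted p = 0.0577, adjusted p = 1.00). F2R, the main thrombin receptor of many cells, had 1 probe set, below the lower quartile on 13 of 13 arrays, at 3.42 to 3.53 in M5, 3.17 to 3.42 in M1, 3.23 to 3.69 in M4 and 3.32 to 3.61 in control. At such signals, as for SERPINC1, a change of the transcript may not be visible.

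Genes of clotting, fibrinolysis and their cofactors were taken from 8 lists of 92 genes besides SERPIND1, of which 83 were measured, the 7 members among them. Against control and without the block 0 of 83 were called in M1, M4, M5 or the mean of the lines. At an unadjusted p under 0.05 there were 2, 2, 13 and 6, where 3.08%, 6.91%, 18% and 8.16% of all genes passed. With the block 0 were called in M1, M4 and the mean of the lines, where 0.234%, 0.15% and 0.527% of all genes were called. In M5 2 were called with the block, a number close to the 1.98% of all genes called. The cascade factors (17 measured, 0 called in 8 comparisons) had a median of 0.055 log2 units in M5, with 13 higher and 4 lower, which turned to -0.15 with the block, with 4 higher and 13 lower. Over all genes the medians were 0.031 and, with the block, -0.017. Among the cascade factors only F12 had a mean signal above the median of all genes. The lower quartile of the array was 4.40 and 4.36 in M5 replicates 2 and 3, 4.17 in M5 replicate 1 and 4.20 to 4.27 in control. Its part in the list medians was not tested. F12, the factor that starts contact activation, was at 0.46 in M5, -0.20 in M1 and -0.08 in M4. The natural anticoagulants (11 measured, 0 called) had a median of -0.11 in M5 (-0.14 with the block), with the phospholipid-binding ANXA5 at -0.55 in M5 and the protein C receptor PROCR at -0.014. The receptor list (5 measured, 0 called) had a median of 0.041 in M5 (-0.019 with the block), and the plasma serpin list (9 measured, 0 called) one of -0.060 (-0.24 with the block), with the thrombin and plasminogen activator inhibitor SERPINE2 at -0.57.

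Without the block 1 of the 83 genes was called in M5 against M1 and 2 against M4, numbers close to the 1.23% and 2.16% of all genes called. PLAU was the gene called in both. PLAU, which encodes urokinase, had signals of 7.42, 7.56 and 7.32 in M5, 8.36, 8.55 and 8.65 in M1, 7.98, 8.96 and 8.52 in M4 and 7.69 to 8.43 in control. Every M5 array lay below every array of the other groups, as in 3.1% of all genes. PLAU fell by 1.09 log2 units against M1 (-1.09 ± 0.23, adjusted p = 0.0425) and was at -1.06 ± 0.23 against M4 (adjusted p = 0.032), while against control it was at -0.62 and was not called. With the cluster block it was at -0.75 and -0.67 (adjusted p = 0.0971 and 0.152), so both calls were lost. They were also lost on leaving out either M5 replicate 2 (adjusted p = 0.107 against M1 and 0.0723 against M4) or M5 replicate 3 (0.186 and 0.147). Against M1 the call was lost without M1 replicate 1, 2 or 3 or M4 replicate 3 (0.0698 to 0.141), and against M4 without M4 replicate 2 or 3 (0.148 and 0.121). Of the other 9 measured genes of fibrinolysis 0 were called.

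**Figure D4:**
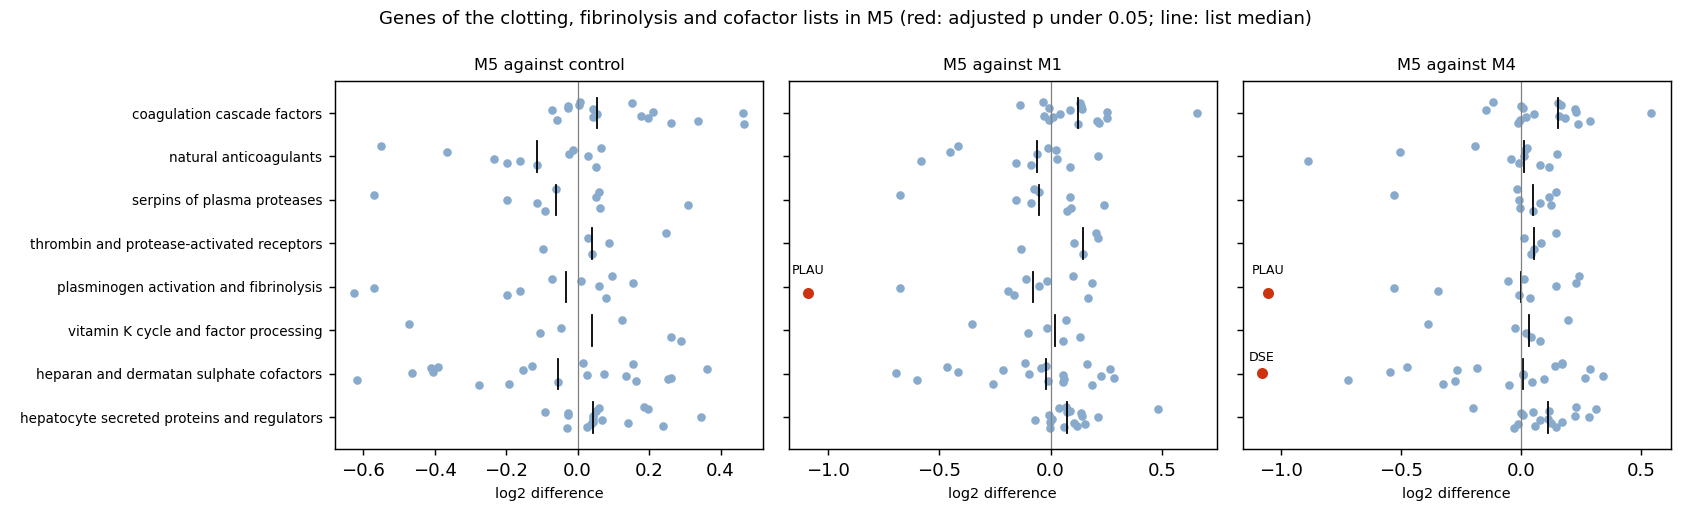
Log2 difference (horizontal axis) of each measured gene of 8 lists (vertical axis) in M5 against control, M1 and M4, without a block. Points are genes, red points have an adjusted p under 0.05 and black lines mark list medians; PLAU is red against M1 and M4, and DSE against M4.

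Heparan and dermatan sulphate are the cofactors of heparin cofactor II and antithrombin. Among genes that make or carry them (19 measured), 1 was called without the block. It was called in M5 against M4, where 2.16% of all genes were called. DSE, the epimerase that forms dermatan sulphate, had signals of 7.12, 5.89 and 6.68 in M5, against 7.64, 7.61 and 7.67 in M4. It fell by 1.08 log2 units in M5 against M4 (-1.08 ± 0.23, adjusted p = 0.0324), and with the cluster block it was at -0.47 ± 0.25 (adjusted p = 0.448). The lowest value, 5.89, was that of M5 replicate 2, and without it the difference was -0.74 (adjusted p = 0.0447). The call was lost without M5 replicate 3, any 1 of the M4 replicates or either control with luciferase (adjusted p = 0.0503 to 0.125). The syndecan SDC4 and the polymerase EXT1 were at -0.34 ± 0.13 and -0.32 ± 0.14 in the mean of the lines, not called. The sulphotransferase HS3ST3A1 was called in M5 against control with the block and not without it (0.75 ± 0.14, adjusted p = 0.0239). With the block it was also called against M1 (0.72 ± 0.14) and M4 (0.71 ± 0.15). Under the block 1.98%, 1.61% and 1.85% of all genes were called in M5 against control, M1 and M4. These HS3ST3A1 calls rest on M5 replicate 1, at 6.35, while M5 replicates 2 and 3 had 5.54 and 5.36.

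In the vitamin K cycle and factor processing list (6 measured) 0 genes were called without the block. GGCX, the carboxylase that activates clotting factors, was at 0.24 ± 0.10 in the mean of the lines (adjusted p = 0.539), and MCFD2, which carries factors V and VIII out of the endoplasmic reticulum together with LMAN1, was at -0.22 ± 0.16 (adjusted p = 0.782). LMAN1 was called in M5 against control with the block (0.84 ± 0.16, adjusted p = 0.0249), where 1.98% of all genes were called. It was also called with the block against M1 (0.90 ± 0.16) and M4 (0.91 ± 0.17). These calls again rest on M5 replicate 1, at 8.26, against 6.93 and 7.09 in M5 replicates 2 and 3. Without the block LMAN1 was at -0.05 in M5 against control. Proteins secreted by hepatocytes and their regulators (17 measured, 0 called) had a median of 0.044 in M5, with 13 higher and 4 lower, which turned to -0.086 with the block, with 5 higher and 12 lower. Over all genes the medians were 0.031 and, with the block, -0.017. Without the block the hepatocyte list held transferrin, TF, at 0.34 and the regulator FOXA1 at 0.061. The 5 hepatocyte markers ALB, AHSG, APOH, HP and TTR, of which ALB and APOH were below the lower quartile on all arrays, averaged 4.54 to 4.82 log2 units in M5 and 4.61 to 4.71 in control.

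Markers of other cells were examined in the same arrays. Of 6 epithelial markers the keratins KRT8, KRT18 and KRT19 were bright, whereas EPCAM and CDH1 lay below the lower quartile on all arrays. Their list mean was 7.71 to 7.91 in M5, 7.65 to 7.97 in M1, 7.87 to 7.92 in M4 and 7.96 to 8.10 in control, so the M4 and M5 arrays lay below the control range and M1 reached into it. The list median against control was -0.15 in M5, -0.22 in M1 and -0.14 in M4. With the cluster block it was 0.005 in M5, -0.070 in M1 and -0.093 in M4. The endothelial markers CDH5, VWF, KDR and TIE1 (4 of 6), the haematopoietic markers PTPRC, CD3E and LYZ (3 of 4) and the platelet marker PPBP (1 of 4) lay below the lower quartile on all arrays. The platelet markers ITGA2B and GP9 averaged 6.24 and 6.23 log2 units, near the median of all genes, PF4 averaged 4.95 and the monocyte marker CD14 averaged 4.44. The endothelial markers PECAM1 and TEK averaged 4.26 and 4.65. Of 5 lung lineage markers SFTPD and SCGB1A1 lay below the lower quartile on all arrays, while SFTPC averaged 6.92, SFTPB 5.91 and NKX2-1 5.32. Of 5 fibroblast markers COL3A1 was called lower in M5 than in M1 (-1.72 ± 0.32, adjusted p = 0.0226, and 0.0227 with the cluster block). There 1.23% of all genes were called, and 1.61% with the block. With that block COL3A1 was also called higher in M1 than in control (1.43 ± 0.17, adjusted p = 0.0052), where 0.234% of all genes were called. Without the block it averaged 10.28 in M1 and 9.09 in control (adjusted p = 0.706). The list did not follow COL3A1 in M5 against M1, where 3 of the 5 markers were higher and 2 lower without the block. The list median there was 0.009 log2 units (-0.020 with the block). COL3A1 averaged 8.56 in M5 and 10.28 in M1 and enters the fibroblast list mean. That mean was 5.87 to 5.93 in M5, 6.10 to 6.26 in M1, 6.01 to 6.05 in M4 and 5.78 to 6.03 in control. The part of these in the values above was not tested, and in bulk RNA fewer cells of a kind and less RNA per cell cannot be told apart.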

How the data were processed

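Array signals of 13 samples were deposited by the authors as log2 values, made with RMA per the submitters' processing notes; its version is not given in the sources used here. RMA corrects background, quantile-normalizes and summarizes probes, so differences are relative to the other genes of an array. Probe sets were named from the platform annotation. For each of 11963 genes the probe set with the highest mean was kept, and 5 group means were fitted over all arrays with limma 3.58.1 in R 4.3.3. Control was the equal mean of its 2 kinds, and p-values were Benjamini-Hochberg adjusted over all genes, with a threshold of 0.05. The plan counted 8 tested members, but F2RL1 had 0 probe sets, which left 7. The members and lists were chosen with earlier results of these data known. From the lists, genes called in any comparison were named (at most 4 per list and comparison), otherwise the 2 above the median signal with the largest difference of the mean of the lines; for likeness to SERPIND1, the 5 highest and 3 lowest correlations, and the nearest 2 measured genes on each side. All measured hepatocyte, endothelial, haematopoietic, platelet and lung lineage markers were named. Of the epithelial markers those dim on all arrays and the brightest keratins were named, and of the fibroblast markers COL3A1, which was called. These choices were made after the values were seen. Blocks, normalizations, filters and left-out arrays were tried as alternatives, and the procedure was tested on simulated data. The simulated gene signals had independent noise and no array clusters, so they cannot show how the fits behave where clusters and lines overlap. The number of arrays limits the precision.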

Additional observations from a re-analysis of the deposited data

How the results depend on the processing

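The count of called genes among the 7 tested stayed at 0 in the 8 comparisons under every alternative run except 1. In M5 against M4, leaving out single arrays gave 0 to 1, the 1 being TFPI without M5 replicate 1, a fit that called 2443 of 11963 genes, against 258 with all arrays. For SERPIND1 against control, leaving out single arrays gave 3.30 to 3.64 in M5, 0.28 to 1.38 in M1, 0.62 to 1.22 in M4 and 1.52 to 1.88 in the mean of the lines. The lowest M1 value was that without M1 replicate 3. The M4 difference reversed to -0.21 with the control-probe clusters as a block and to -0.0011 with the first digit of the label number as a block. It moved to 0.044 without M1 replicate 3 and M4 replicates 2 and 3, an alternative chosen after seeing the data. The M5 difference moved to 3.09 and 2.21 under these 2 blocks. Under the label-digit block that of the lines moved to 0.77 and that of M1 was 0.12. No M5 array shared its first digit with a control array. Under that block M5 against control, and with it the mean of the lines, therefore leaned on the M1 and M4 arrays. The cause of these moves was not tested. With the replicate number as a block SERPIND1 was at 3.11 in M5, 0.61 in M1, 0.49 in M4 and 1.40 in the lines, and 0 of the 7 genes were called. The replicate numbers were not shown to pair the arrays, and pairing was not settled. Of 23 same-numbered pairs 7 had deviations correlated above 0.1 (r from -0.51 to 0.53), and 8 of 13 arrays correlated best with their own number. The 2 arrays of each kind of control deviate from their mean by equal amounts in opposite directions, which fixes part of these values. The dim members limit what can be seen, since F2R and SERPINC1 lay below the lower quartile on all arrays. Outside the members, PLAU kept its call under 5 of 11 alternatives in M5 against M1 and 5 of 11 in M5 against M4. DSE kept its call in M5 against M4 under 5 of 11. These alternatives include the threshold of 0.01 and do not count the fits that left out a single array.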
